A study of Mus musculus with 32 samples.

Results

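The G2 and mitosis genes described here are 40 genes that cells use to enter and complete cell division. They were taken by gene symbol from a pair of deposited count tables, 1 for each of the mouse cell lines AML12 and HL-1. Each of the 40 symbols was found in both tables under the same Ensembl gene ID, among 27843 genes listed for AML12 and 55414 listed for HL-1. All 40 also passed the filter on low counts in both lines, which left 14114 genes in AML12 and 14450 in HL-1. The 40 are the transcription factor gene Foxm1, 5 genes of cyclins, Cdk1 and its activator Cdc25c, 6 of mitotic and checkpoint kinases, 5 of the central spindle and cytokinesis, and 6 of condensin, Top2a and Mki67. A further 3 belong to the anaphase-promoting complex and securin, 4 to the chromosomal passenger complex, 7 to kinesins and the spindle, and 3 to the kinetochore.

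Most of these genes are transcribed late in the cell cycle. In quiescent and early cell cycle cells the DREAM complex holds them down through a promoter element called the cell cycle genes homology region (CHR); later the MuvB core, B-MYB and FOXM1 activate them there, and NF-Y binds nearby CCAAT boxes. Cyclin A and cyclin B then activate CDK1, which drives entry into mitosis, and the anaphase-promoting complex ends mitosis by having cyclin B and securin degraded. The summed RNA of such genes is widely used as a measure of how much a culture divides.

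The series was described as a study of rhythmic communication between the lines, with RNA-seq at 2 times in each line. AML12 is a mouse line labelled as hepatocyte, and HL-1 a mouse line labelled as cardiomyocytes. AML12 cells were given DEX treatment, an abbreviation that the labels do not spell out, or control treatment, and were sampled at 17 h and 25 h. HL-1 cells received medium conditioned by AML12 cells, either from cultures synchronized with DEX (CM) or from cultures without it (control), and were sampled at 16 h and 28 h. The control of HL-1 is thus also a medium taken from AML12 cells. There were 8 groups of 4 libraries, 32 in all, and nothing in the labels says that the 4 came from separate cultures, so the p-values below measure the spread between these libraries, which may be technical.

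The libraries held 15.0 to 19.3 M counts (M, mega). CM libraries were deeper than their controls, with 18.6 ± 0.606 M in CM cells and 16.3 ± 0.722 M in control cells at 16 h, and 18.2 ± 0.753 M in CM cells and 16.6 ± 1.00 M in control cells at 28 h (SD, n = 4 each). Replicate 2 of AML12 DEX at 17 h stood apart from the other 3 libraries of its group, with pairwise chi-square values over the genes, divided by their degrees of freedom, of 13.2 to 17.5 against them and 2.36 to 3.90 among them. Replicate 4 of AML12 DEX at 25 h did so less (3.83 to 4.96, against 2.28 to 3.61), and replicate 3 of HL-1 control at 16 h did so too (7.67 to 15.9, against 2.66 to 5.39). By smaller margins the same held for replicate 4 of AML12 control at 17 h (2.53 to 3.10, against 2.10 to 2.50) and at 25 h (3.00 to 3.05, against 2.02 to 2.86). The labelled cell types were thinly marked. In AML12 only Apob and Hnf4a of the 8 hepatocyte markers in the table averaged over 10 CPM, and Alb averaged 0.68 to 2.35 CPM by group. In HL-1, 8 of 12 cardiomyocyte markers were under 1 CPM in every library, Myh6, Nppa and Ryr2 among them. A further 3 averaged over 10 CPM: Gja1 (510 CPM in control cells at 16 h), Des (380) and Tnnt2 (23.7). Of other classes, 4 of the 5 bile duct markers in the AML12 table and 6 of 9 fibroblast markers in HL-1 averaged over 10 CPM.

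In AML12 cells the G2 and mitosis genes were higher with DEX at both times, and lower at 25 h than at 17 h with either treatment, Kif23 in DEX cells excepted. Summed over the 40 genes, the level was 4625 ± 272 CPM in DEX cells and 2861 ± 147 CPM in control cells at 17 h, and 3023 ± 299 CPM in DEX cells and 1947 ± 91.1 CPM in control cells at 25 h (SD, n = 4 each; CPM are counts per M library counts, scaled with TMM factors). In HL-1 cells the same sum was 12377 ± 354 CPM in CM cells and 13332 ± 265 CPM in control cells at 16 h, and 8397 ± 284 CPM in CM cells and 8500.4 ± 223 CPM in control cells at 28 h. The DEX and control libraries did not overlap at either time, nor did the CM and control libraries at 16 h; at 28 h the CM and control libraries overlapped. In RNA from whole cultures, a larger share of dividing cells and more of each RNA per dividing cell cannot be told apart.

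**Figure D1:**
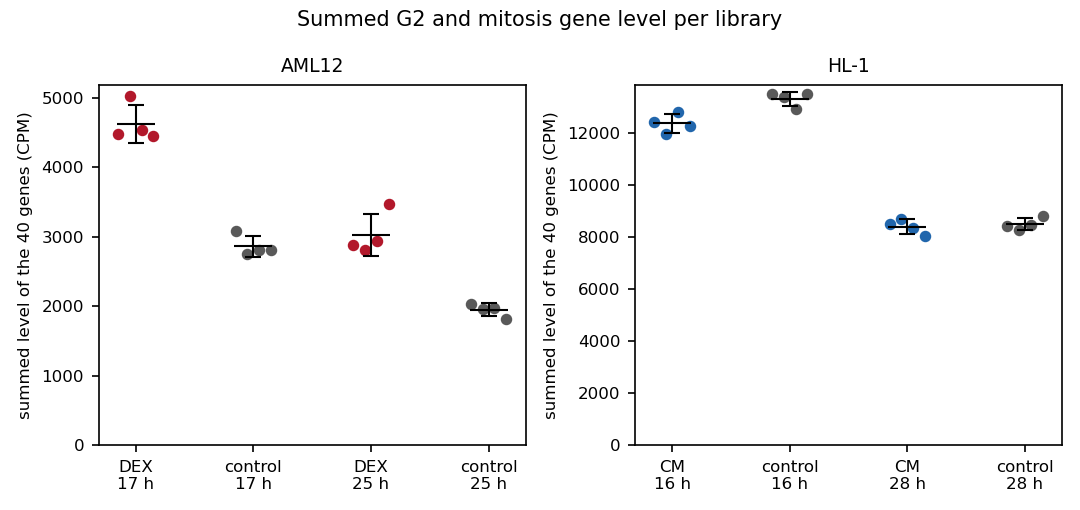
Summed level of the 40 G2 and mitosis genes in CPM in each library, AML12 on the left and HL-1 on the right; points are libraries, and the line and bars are the mean and SD of 4 libraries. The DEX groups average 4625 CPM at 17 h and 3023 CPM at 25 h, against 2861 and 1947 CPM in their controls, while the 28 h groups of HL-1 lie close together at 8397 CPM with CM and 8500.4 CPM in controls.

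The promoters are shown first. CHR and CCAAT elements are known for genes of this class, so choosing the class favours finding them. Whether these elements had a part in the changes described here was not tested. RefSeq promoter windows of 250 bases before to 50 bases after the start (GRCm38.p6) matched 31 of the 40 genes by symbol, with 33 windows; Ect2 and Prc1 each have a pair of windows that overlap. Those of Incenp, Foxm1, Dlgap5, Aurkb, Tpx2, Ccna2, Kif20a, Cdc25c and Smc4 were not matched. Stretches upstream of the start of 6 genes follow, each read 5′ to 3′ on the gene's strand. Capitals mark CHR cores (TTTGAA or TTCGAA on either strand, so also TTCAAA) and CCAAT boxes (CCAAT, or ATTGG where the box is on the other strand). Top2a, Cdk1, Mki67 and Kif11 were chosen because both elements stand in the stretch shown. Ccnb2 and Hmmr were chosen because their stretches hold CCAAT boxes while a CHR core lies just past the start. Ccnb2 has a further CHR core that begins 167 bases before the start, outside the stretch shown. The stretches are Top2a at chr11:99024190-99024339 (minus strand), Cdk1 at chr10:69352939-69353062 (minus), Mki67 at chr7:135716380-135716529 (minus), Kif11 at chr19:37376232-37376381 (plus), Ccnb2 at chr9:70421555-70421704 (minus) and Hmmr at chr11:40733438-40733587 (minus).
Top2a: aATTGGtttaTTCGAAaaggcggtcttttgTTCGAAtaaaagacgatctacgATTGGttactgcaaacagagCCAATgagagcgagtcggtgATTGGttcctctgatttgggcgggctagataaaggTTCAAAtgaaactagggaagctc
Cdk1: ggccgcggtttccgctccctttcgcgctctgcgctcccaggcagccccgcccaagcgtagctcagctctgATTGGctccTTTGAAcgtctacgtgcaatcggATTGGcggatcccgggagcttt
Mki67: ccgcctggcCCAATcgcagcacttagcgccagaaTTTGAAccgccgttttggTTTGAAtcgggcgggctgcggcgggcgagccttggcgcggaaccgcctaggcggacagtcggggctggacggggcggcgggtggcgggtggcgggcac
Kif11: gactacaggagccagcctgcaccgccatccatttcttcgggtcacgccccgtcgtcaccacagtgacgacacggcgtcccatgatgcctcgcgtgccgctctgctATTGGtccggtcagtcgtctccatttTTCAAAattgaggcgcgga
Ccnb2: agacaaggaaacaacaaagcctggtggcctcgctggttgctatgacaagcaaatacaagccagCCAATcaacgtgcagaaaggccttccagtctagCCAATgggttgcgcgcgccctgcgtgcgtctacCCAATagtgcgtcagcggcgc
Hmmr: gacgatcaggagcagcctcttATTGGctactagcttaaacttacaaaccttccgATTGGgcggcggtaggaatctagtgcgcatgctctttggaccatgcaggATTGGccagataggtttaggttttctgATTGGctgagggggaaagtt

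In many other members the CHR core lay at or just after the annotated start, and 24 bases around it are shown for 8 of them, with the core in capitals. They lie at chr7:122159456-122159479 (plus strand, Plk1), chr9:70421536-70421559 (minus, Ccnb2), chr2:172370524-172370547 (minus, Aurka), chr2:127831831-127831854 (minus, Bub1), chr1:189688070-189688093 (minus, Cenpf), chr9:61946783-61946806 (minus, Kif23), chr11:40733415-40733438 (minus, Hmmr) and chr10:69352913-69352936 (minus, Cdk1). The core of Cdk1 begins 15 bases before the RefSeq start, but inside the gene as GENCODE places it. Those of the other 7 genes begin 3 bases (Kif23, Cenpf) to 33 bases (Aurka) past the RefSeq start.
Plk1: agcgccgcgTTTGAAttcggggag
Ccnb2: ggcgcggtaTTTGAAtcgcggacc
Aurka: aggagaaccTTTGAAttgtaacgg
Bub1: cgcggggaaTTCGAAtcgccggcg
Cenpf: ggcgggcagTTTGAAtcgctcgtg
Kif23: attggcctgTTTGAAatgcgccgg
Hmmr: tgaggtaaaTTTGAAttcaggcga
Cdk1: cgcggcgagTTTGAAactgctggc

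A CHR core was found in 26 of the 33 member windows (78.8%), against 19.2% of all 32851 promoter windows of the same length and 14.1% of the 12437 windows of genes tested in AML12. A CCAAT box was found in 27 (81.8%), against 37.4% of all windows and 37.9% of those of tested genes. Both stood in 24 (72.7%), against 7.52% and 5.97%, and at least 2 CCAAT boxes stood in 18 (54.5%), against 11.7% and 14.4%. By gene, 24 of 31 held a CHR core, and 22 had one no more than 50 bases from the start. In 23 of the 33 windows the bases after the start lay in a GENCODE transcript of the gene, on its strand. Distances here are from the RefSeq start, and other annotated starts may differ. Genes whose window held none were Birc5, Ccnb1, Cenpe, Ncaph, Nek2, Nusap1 and Pttg1.

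The other motifs searched were not as widespread. An E2F-type site (TTTGGCGC, TTTCCCGC, TTTGCCGC or TTTCGCGC, either strand), the element best known from genes of the start of DNA replication, was in 2 windows (6.06%), against 2.26% of all and 3.88% of those of tested genes. The forkhead core TGTTTA, searched on both strands because FOXM1 is a forkhead factor, was in 4 (12.1%), against 13.4% and 8.84%. Of 37 matches to the CHR core, 17 lay past the start, with the cores of Ect2 and Prc1 counted in each of their overlapping windows. The 250 bases upstream alone held a CHR core in 14 of the 33 windows (42.4%), against 17.1% of all windows. A match is a run of letters in this window and no more.

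**Figure D2:**
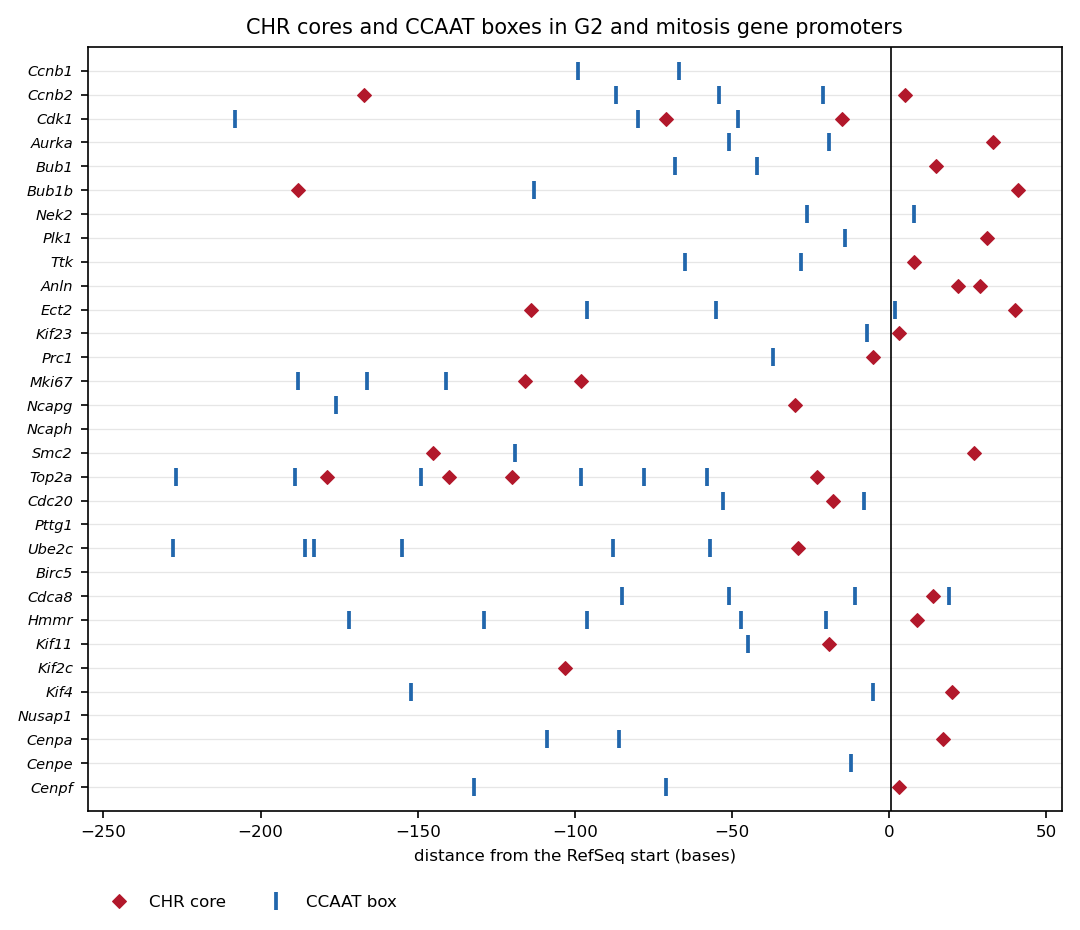
Positions of CHR cores (red diamonds) and CCAAT boxes (blue ticks) in the promoters of the 31 matched G2 and mitosis genes, by distance from the RefSeq start in bases (vertical line at the start). Most CCAAT boxes lie in the 150 bases upstream, and 22 genes have a CHR core within 50 bases of the start.

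The comparison of DEX with control asks what the treatment did to the AML12 cells that later supply the medium. At 17 h all 40 genes rose with DEX (edgeR's quasi-likelihood test, Benjamini-Hochberg adjusted p at most 0.00391), where 20.5% of the genes tested rose and 17.9% fell. The median log2 fold change over the 40 was 0.68, a fold of 1.60, beside a median of 0.00 over all genes tested. In all 40 the 4 DEX libraries lay above the 4 control libraries, as they did for 18.3% of genes tested. Without the DEX library that stood apart, all 40 were still called higher and the median was 0.65. Beside this, the summed level of the 8 hepatocyte markers was 288 CPM in DEX cells and 392 CPM in control cells at 17 h, and 397 CPM in DEX cells and 384 CPM in control cells at 25 h. Apob and Hnf4a made up nearly all of that sum, while Alb went the other way at 17 h, with 1.83 CPM in DEX cells and 0.68 CPM in control cells, as did Ttr (1.93 and 0.59 CPM) and Apoa1 (1.83 and 0.68 CPM). The sum of 5 immune markers was 119.5 CPM in DEX cells and 178 CPM in control cells at 17 h, and 248 CPM in DEX cells and 222 CPM in control cells at 25 h; it was nearly all Cd14, with Ptprc and Lyz2 under 1 CPM throughout. The part of these markers in the result was not tested.

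Foxm1, the transcription factor at the head of this programme (chr6:128362967-128376146, plus strand, GRCm38), had 139, 162, 146 and 132 CPM in DEX cells, against 79.2, 71.7, 74.7 and 78.0 CPM in control cells at 17 h. At 25 h it had 86.8, 84.9, 79.4 and 103 CPM in DEX cells, against 58.6, 57.6, 48.8 and 47.7 CPM in control cells. Each DEX library was above each control library of its time, and the DEX libraries at 25 h were just above the control libraries at 17 h. The log2 fold change was 0.93 ± 0.07 (SE; adjusted p 2.85e-10, edgeR) at 17 h and 0.74 ± 0.08 at 25 h. Exons of Foxm1 overlap those of Gm44596 and Tex52 on the same strand, and how the counting treated such reads is not given in the sources used here.

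Among the cyclins and Cdk1, all 5 rose at 17 h, from Ccnb2 with a log2 fold change of 0.43 ± 0.06 to Ccna2 with 0.92 ± 0.08. Cdk1, the kinase that drives mitotic entry (chr10:69335146-69352938, minus strand), had 103, 102, 109 and 104 CPM in DEX cells, against 77.3, 65.2, 70.2 and 67.9 CPM in control cells at 17 h. At 25 h it had 66.7, 60.5, 59.2 and 73.2 CPM in DEX cells, against 48.7, 42.6, 45.5 and 45.3 CPM in control cells. The groups were apart at both times, by 0.58 ± 0.06 and 0.51 ± 0.06 on the log2 scale.

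Ccnb1 encodes cyclin B1, the main partner of CDK1 in mitosis (chr13:100778650-100786570, minus strand). It had 105, 95.7, 107 and 101 CPM in DEX cells, against 70.9, 64.2, 65.6 and 65.7 CPM in control cells at 17 h, and 52.0, 47.2, 50 and 60.3 CPM in DEX cells, against 36.3, 33.8, 33.0 and 33.0 CPM in control cells at 25 h. The step with DEX was the same size at both times, 0.62 ± 0.06 each, and the lowest DEX library stood well above the highest control library of its time. Ccnb2, encoding the Golgi-associated cyclin B2 (chr9:70407692-70421547, minus strand), had 66.6, 75.4, 66.4 and 67.8 CPM in DEX cells, against 55.1, 49.3, 50.4 and 49.8 CPM in control cells at 17 h. At 25 h it had 57.3, 49.2, 52.5 and 62.7 CPM in DEX cells, against 40.4, 36.6, 36.9 and 36.6 CPM in control cells. Its groups were apart too, with a smaller step at 17 h than that of Ccnb1. A pseudogene of the same name is annotated for each of Ccnb1, Ccnb2 and Kif4, so reads shared with these pseudogenes are uncertain.

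All 6 mitotic and checkpoint kinase genes rose at 17 h, with a median log2 fold change of 0.68, from Bub1b (0.50 ± 0.05) to Plk1 (0.87 ± 0.07). Plk1, the polo kinase that acts from centrosome maturation to cytokinesis (chr7:122159439-122169873, plus strand), had 82.1, 91.9, 86.9 and 77.5 CPM in DEX cells, against 52.3, 47.1, 42.0 and 44.1 CPM in control cells at 17 h. At 25 h it had 41.7, 39.9, 43.4 and 48.5 CPM in DEX cells, against 29.9, 30.0, 25.3 and 27.7 CPM in control cells. No library of one group reached the other at either time, but the DEX libraries at 25 h were level with the control libraries at 17 h. Aurka, the spindle-pole kinase, rose by 0.78 ± 0.07 on the log2 scale, and the spindle checkpoint kinase genes Bub1 and Ttk rose by 0.74 ± 0.07 and 0.63 ± 0.09. Nek2, a kinase of centrosome separation and one of the lowest members, averaged 14.0 ± 1.20 CPM in DEX cells and 9.76 ± 1.54 CPM in control cells (SD, n = 4 each) and had the widest error, 0.52 ± 0.12.

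The 5 genes of the central spindle and cytokinesis held the smallest change. Kif23, a kinesin of the centralspindlin complex (chr9:61915905-61946774, minus strand), had 162, 176, 162 and 159 CPM in DEX cells, against 149.5, 137, 141 and 145 CPM in control cells at 17 h. At 25 h it had 134, 154, 153 and 169.9 CPM in DEX cells, against 121, 120.4, 114 and 113 CPM in control cells. Its groups were apart by a narrow gap at 17 h and a wider one at 25 h, with log2 fold changes of 0.20 ± 0.05 and 0.38 ± 0.05, the lowest of the 40 at each time. Its partners in the same structure changed more at 17 h: Anln, the gene of the contractile-ring scaffold anillin, averaged 262 ± 15.3 CPM in DEX cells and 155 ± 8.40 CPM in control cells, a log2 fold change of 0.76 ± 0.06. Prc1, which bundles midzone microtubules, rose by 0.76 ± 0.07, Kif20a by 0.69 ± 0.06 and Ect2, needed for cleavage furrow formation, by 0.58 ± 0.06. The Kif23 promoter holds a CHR core, shown above, and a CCAAT box.

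Mki67, which coats mitotic chromosomes and is the standard proliferation marker, had the largest fitted change of the 40 at both times with all libraries kept. It had 498, 663, 510.1 and 487 CPM in DEX cells, against 304, 262, 275 and 273 CPM in control cells at 17 h, and 289, 282, 302 and 358 CPM in DEX cells, against 189, 180.1, 186 and 154 CPM in control cells at 25 h (chr7:135689784-135716361, minus strand). The groups were far apart at both times, and the highest library at each time was the one that stood apart in its group. At 17 h the rank of Mki67 rested on that library, DEX replicate 2. Without it, the ratio of mean CPM in DEX to control cells was larger for Aurkb and Foxm1 than for Mki67. The log2 fold changes were 0.95 ± 0.09 (fold 1.94, adjusted p 2.36e-09, edgeR) and 0.80 ± 0.09. Top2a, the topoisomerase that untangles sister chromatids (chr11:98992943-99024189, minus strand), had 557, 571, 549 and 570.2 CPM in DEX cells, against 400.3, 347, 362 and 357 CPM in control cells at 17 h, and 400.4, 393, 418 and 488 CPM in DEX cells, against 279.6, 271, 286 and 257 CPM in control cells at 25 h. The DEX libraries of Top2a at 17 h lay close together, and no library overlapped the other group at either time.

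The condensin genes rose as well. Smc4, 1 of the 2 ATPase subunits of condensin (chr3:69004738-69034623, plus strand), had 158, 178, 150.5 and 156 CPM in DEX cells, against 112, 109, 115 and 106 CPM in control cells at 17 h. At 25 h it had 120.1, 121, 138 and 155 CPM in DEX cells, against 93.4, 101, 101 and 93.6 CPM in control cells. The groups were apart at both times, and the spread among DEX libraries was wider than that among control libraries. Its log2 fold change was 0.54 ± 0.06 at 17 h and 0.45 ± 0.07 at 25 h, against 0.72 ± 0.08 and 0.63 ± 0.09 for Ncapg and 0.64 ± 0.07 and 0.71 ± 0.08 for Ncaph, both subunits of condensin I.

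The chromosomal passenger complex, which corrects attachments of chromosomes to the spindle, had the highest median log2 fold change of the roles with several genes at each time, 0.78 at 17 h and 0.73 at 25 h. Aurkb, its kinase (chr11:69045647-69051664, plus strand), had 90.1, 84.5, 97.2 and 84.9 CPM in DEX cells, against 51.1, 44.5, 48.5 and 46.4 CPM in control cells at 17 h, and 50.1, 48.4, 47.8 and 67.1 CPM in DEX cells, against 33.4, 33.7, 29.4 and 27.9 CPM in control cells at 25 h. The groups were apart at both times; at 25 h replicate 4 stood well above the other 3 DEX libraries. Birc5 (survivin), Incenp and Cdca8 (borealin) rose at 17 h by 0.80 ± 0.07, 0.77 ± 0.06 and 0.73 ± 0.06. The genes of mitotic exit moved alike, with 0.57 ± 0.07 for the ubiquitin-conjugating enzyme gene Ube2c, 0.61 ± 0.09 for the securin gene Pttg1 and 0.63 ± 0.08 for Cdc20, the activator of the anaphase-promoting complex.

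The 7 kinesin and spindle genes rose with a median log2 fold change of 0.67 at 17 h, from Kif4 (0.49 ± 0.06), a chromosome-bound kinesin, to Nusap1 (0.76 ± 0.09), a microtubule bundling protein. Kif11, the kinesin that pushes spindle poles apart, rose by 0.62 ± 0.07, and Tpx2, the activator of Aurora A, by 0.67 ± 0.05. Of the kinetochore genes, Cenpf rose by 0.82 ± 0.08, the kinesin gene Cenpe by 0.64 ± 0.07 and Cenpa, the histone H3 variant of centromeres, by 0.57 ± 0.07. Genes with exons on another gene's exons, such as Ccna2 with Exosc9, Cdc20 with Elovl1 and Plk1 with Gm44985 on the other strand, may hold reads of both.

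**Figure D3:**
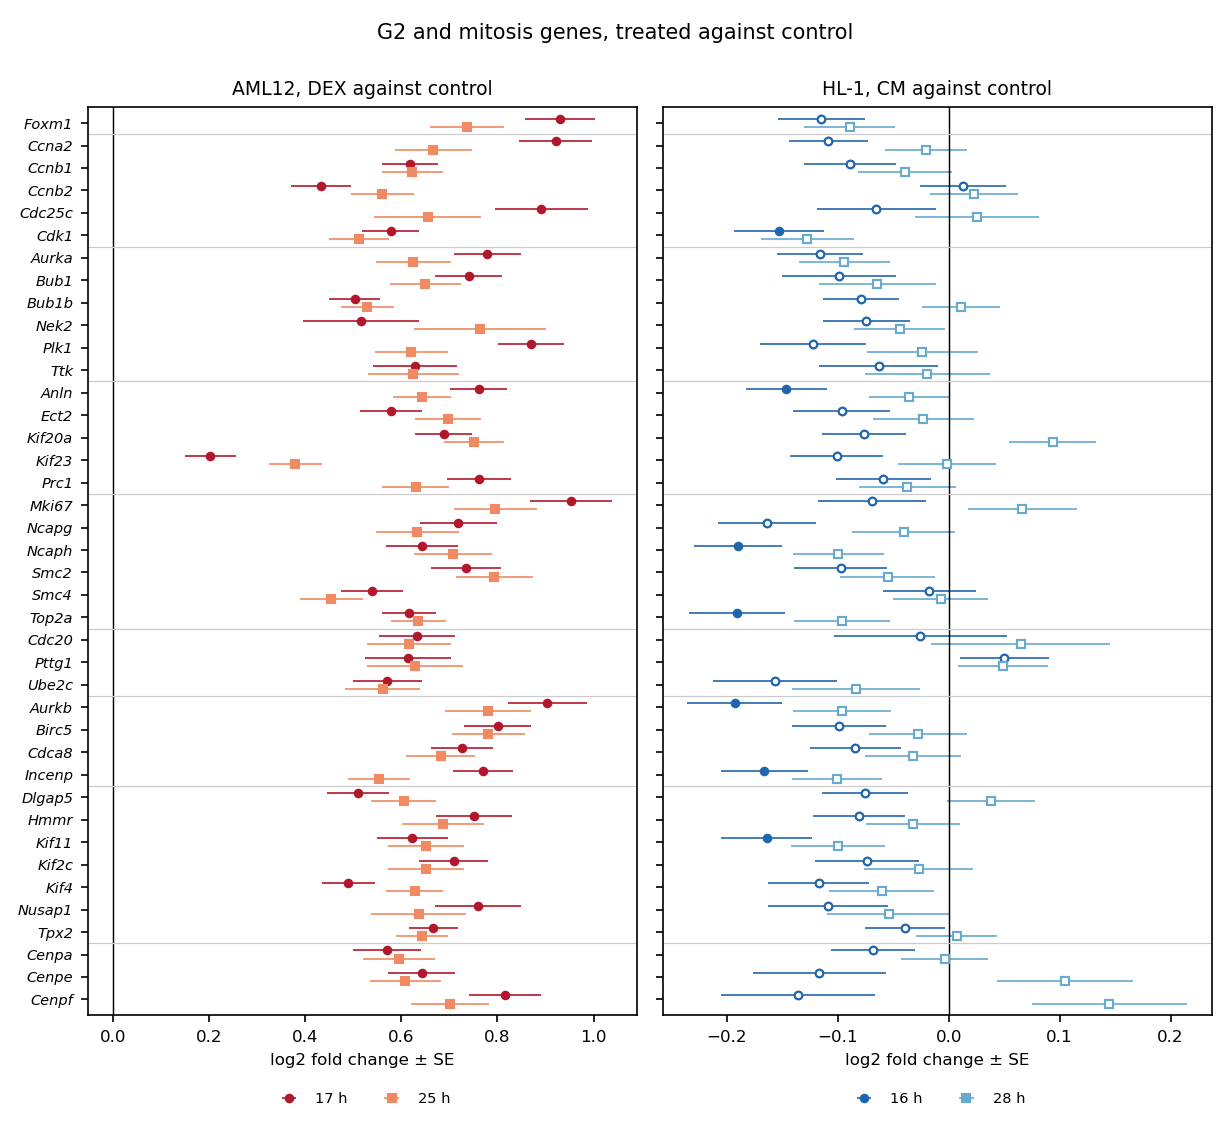
Fitted log2 fold change and SE of each of the 40 G2 and mitosis genes, DEX against control in AML12 (left; 17 h circles, 25 h squares) and CM against control in HL-1 (right; 16 h circles, 28 h squares), grouped by role; open symbols are not called at an adjusted p under 0.05, and the axes differ in range. All 40 are called higher at both AML12 times, from 0.20 (Kif23) to 0.95 (Mki67) at 17 h, while 7 of 40 are called lower in HL-1 at 16 h and none at 28 h.

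At 25 h all 40 genes were again higher with DEX (adjusted p at most 0.000352, edgeR's quasi-likelihood test), where 6.79% of genes tested rose and 4.96% fell. The median log2 fold change was 0.64, a fold of 1.55, with a range of 0.38 to 0.80. The groups were apart for all 40, as they were upward for 9.57% of genes tested. Without the DEX library that stood apart at this time, all 40 were still called and the median was 0.56. Across the 40 genes, the changes at both times went with each other (Pearson's r 0.64, Spearman's coefficient 0.58, a description over genes that share libraries), with an SD between genes of 0.15 at 17 h and 0.087 at 25 h beside median SEs of 0.070 and 0.076.

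None of the 40 had a DEX effect that differed between 25 h and 17 h by the interaction test (edgeR), where 16.2% of genes tested did. The smallest adjusted p was 0.107, and 4 of the 40 had an unadjusted p under 0.05, against 27.9% of genes tested. These 4, named after their values were seen, were Plk1 (-0.25 ± 0.10), Ccna2 (-0.25 ± 0.11), Incenp (-0.22 ± 0.09) and Kif23 (0.18 ± 0.08). The median difference was -0.03, with 25 genes below 0 and 15 above it. The median was -0.12 without DEX replicate 4 at 25 h, -0.08 without both DEX libraries that stood apart, and -0.12 to -0.00 with any 1 library left out. Without both DEX libraries that stood apart, Plk1 (-0.27, adjusted p 0.0347), Ccna2 (-0.26, adjusted p 0.0113) and Aurkb (-0.28, adjusted p 0.0185) were called as smaller DEX effects at 25 h. Single libraries also decided a call: Plk1 and Incenp were called without control replicate 1 at 17 h, Plk1 and Ccna2 without DEX replicate 4 at 25 h, Incenp without DEX replicate 4 at 17 h or control replicate 4 at 25 h, and Kif23 without DEX replicate 2 at 17 h or DEX replicate 1 at 25 h.

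Set against the starting level, DEX cells at 25 h were close to control cells at 17 h. For 36 of the 40 genes these groups overlapped. Foxm1 (79.4 to 103 CPM in DEX cells at 25 h, against 71.7 to 79.2 CPM in control cells at 17 h), Smc4 (120.1 to 155, against 106 to 115 CPM) and Dlgap5 (35.7 to 42.1, against 29.5 to 34.7 CPM) had all DEX libraries higher, and Ccnb1 (47.2 to 60.3, against 64.2 to 70.9 CPM) had all of them lower. Of all genes tested, 20.7% had all 4 DEX libraries higher and 17.7% all 4 lower in that pairing, which joins a treatment and a time and was not tested. The ratio of means had a median of 1.04 over the 40, from 0.786 (Ccnb1) to 1.21 (Smc4).

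The genes fell with time. In DEX cells, 39 of 40 were lower at 25 h than at 17 h (edgeR's quasi-likelihood test), where 28.2% of genes tested fell and 27.8% rose. The median log2 fold change was -0.67, and the largest fall was in Cdc25c (-1.02 ± 0.10), whose product activates CDK1. Kif23 was the exception, at -0.11 ± 0.05 with an adjusted p of 0.0771; without DEX replicate 4 at 25 h it was -0.17, with an adjusted p of 0.00639. In 38 genes all 4 libraries at 25 h were below all 4 at 17 h, as in 23.1% of genes tested; Smc4 was called with libraries that overlapped.

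In AML12 control cells all 40 were lower at 25 h, where 21.4% of genes tested fell and 22.1% rose, and all 40 had groups apart, as 21.4% of genes tested did downward. The median was -0.62, from Ccnb1 (-0.97 ± 0.06) to Smc4 (-0.18 ± 0.07, adjusted p 0.0256). The call of Smc4 was lost without control replicate 1 or 3 at 17 h or control replicate 1 or 4 at 25 h, with adjusted p up to 0.0751. Foxm1 fell by 0.71 in DEX cells and by 0.52 in control cells, and Plk1 by 0.96 in DEX cells and by 0.72 in control cells, both on the log2 scale; the interaction test above is the test of these differences.

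**Figure D4:**
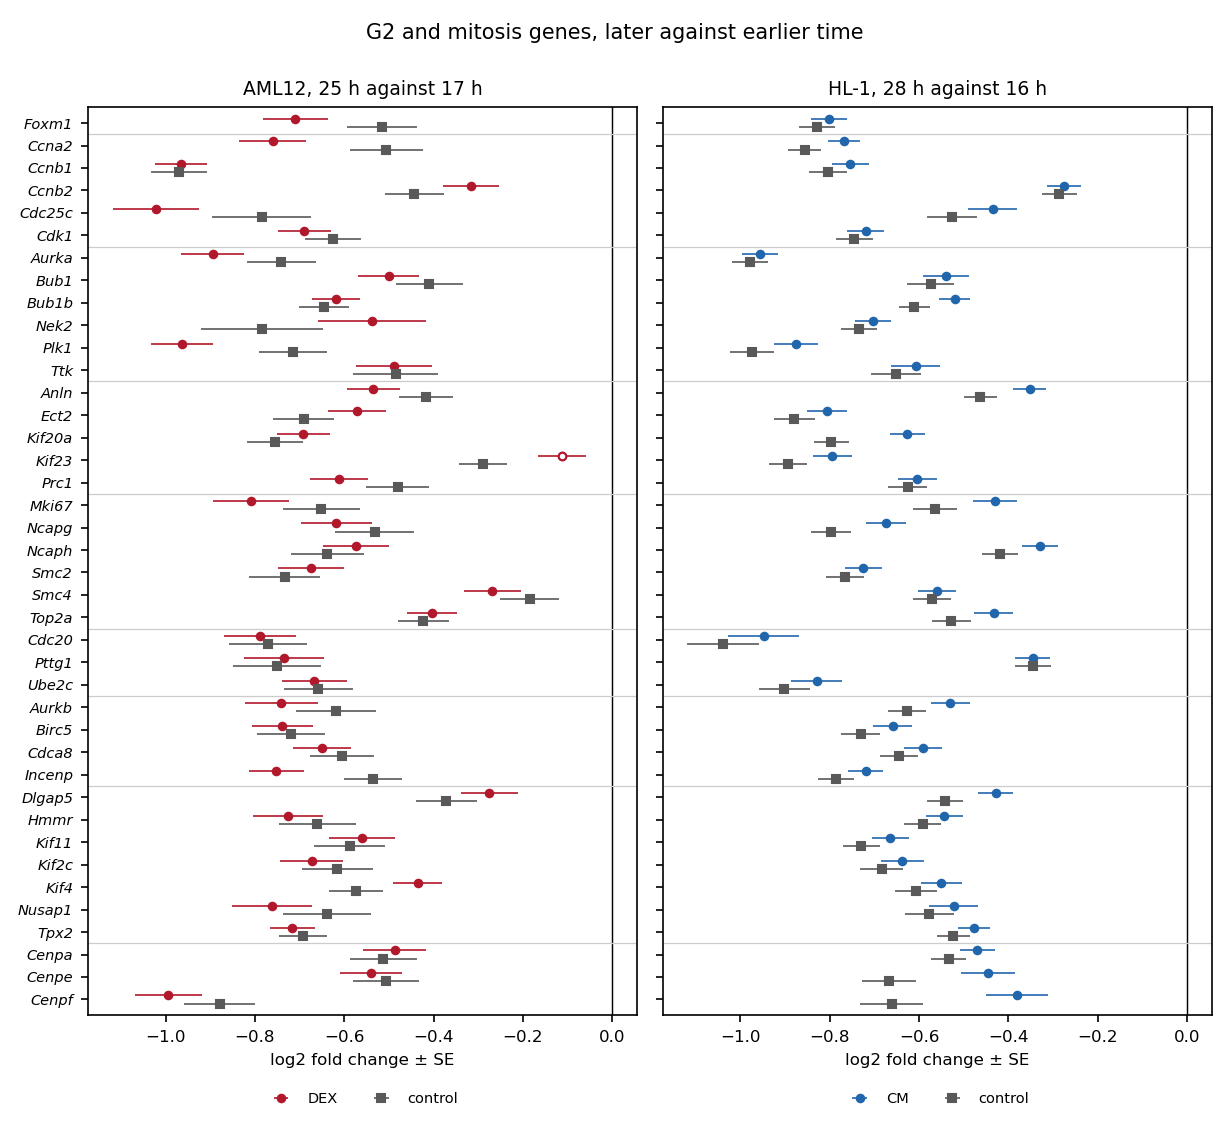
Fitted log2 fold change and SE of the later against the earlier time for each of the 40 G2 and mitosis genes, AML12 (left, 25 h against 17 h) and HL-1 (right, 28 h against 16 h); coloured circles are DEX or CM cells, grey squares control cells, and the open symbol is not called. Every value is below 0, with medians of -0.67 in DEX cells, -0.62 in AML12 control cells, -0.60 in CM cells and -0.66 in HL-1 control cells.

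In HL-1 cells, 28 h was lower than 16 h for all 40 genes with either medium, and the groups were apart for all 40. In CM cells 32.9% of genes tested fell, 32.6% rose and 29.4% had all later libraries lower; in control cells 31.3% fell, 31.5% rose and 27.6% had all later libraries lower. The median log2 fold change was -0.60 in CM cells and -0.66 in control cells. Aurka (-0.96 ± 0.04) fell most in CM cells and Cdc20 (-1.04 ± 0.08) in control cells, while Ccnb2 fell least in both (-0.28 ± 0.04 with CM, -0.29 ± 0.04 in controls).

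The size of the fall by gene was not the same in each line. Kif23 was at -0.11 in DEX cells and -0.29 in AML12 control cells, but at -0.79 in CM cells and -0.89 in HL-1 control cells. Smc4 was at -0.27 and -0.18 in AML12 DEX and control cells, and at -0.56 and -0.57 in HL-1 CM and control cells. Cenpf went the other way, at -0.99 in DEX cells and -0.88 in AML12 control cells, against -0.38 in CM cells and -0.66 in HL-1 control cells. Across the 40 genes the falls in the control cells of both lines had a Pearson's r of 0.26 and a Spearman's coefficient of 0.28, as a description; the times differ between the lines (25 h against 17 h, and 28 h against 16 h), so no test was made.

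**Figure D5:**
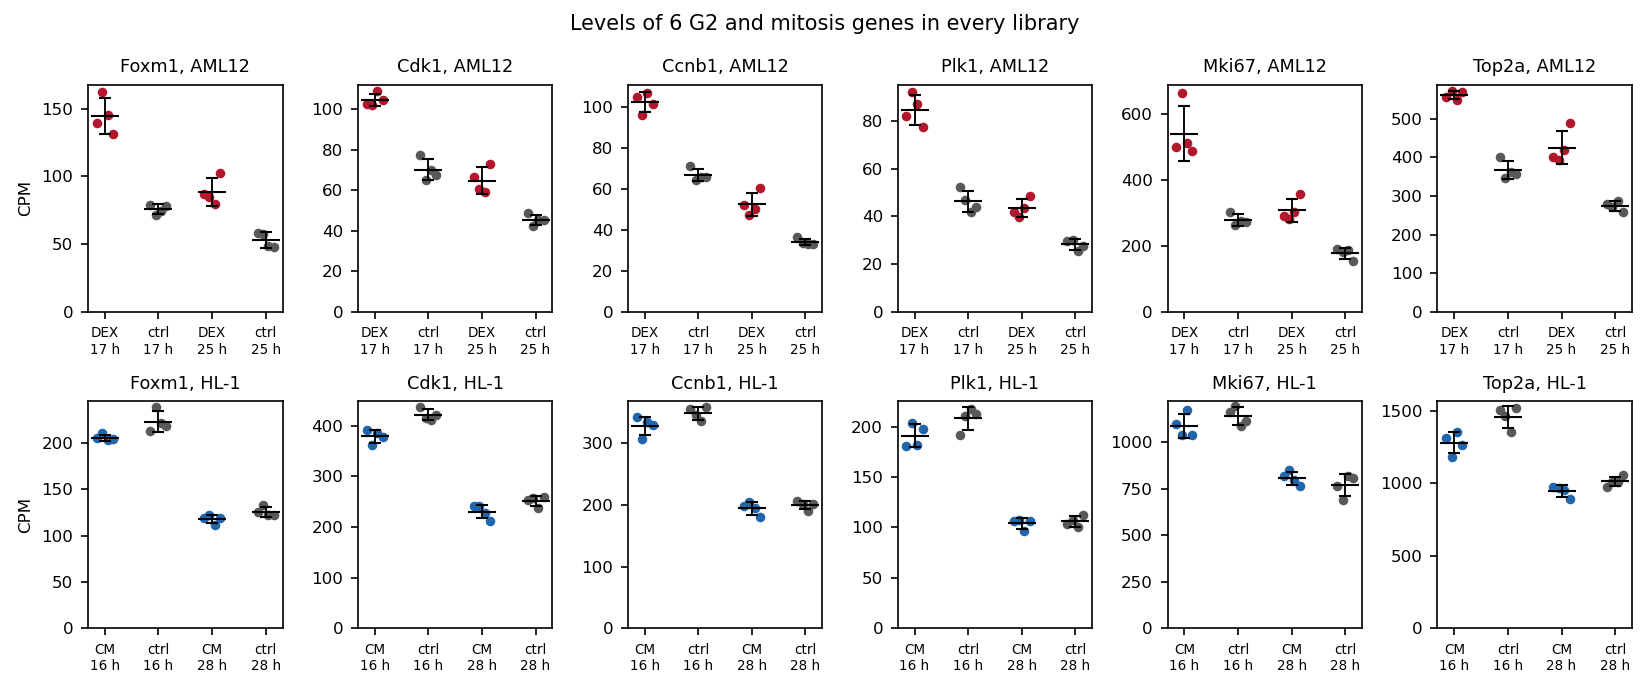
Level in CPM of 6 G2 and mitosis genes in every library, AML12 in the upper row and HL-1 in the lower; points are libraries, and the line and bars are the mean and SD of 4. DEX lies above control at each time in the upper row, the later time lies below the earlier in both rows, and CM and control lie close to each other in the lower row.

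The comparison of CM with control asks whether medium from DEX-synchronized AML12 cells acts on HL-1 cells. At 16 h 7 of the 40 genes were lower with CM and none was higher (edgeR's quasi-likelihood test), where 1.2% of genes tested fell and 0.83% rose. They were Aurkb, Top2a, Ncaph, Incenp, Kif11, Cdk1 and Anln, with log2 fold changes of -0.19 to -0.15. The median of the 40 was -0.10, 38 were below 0, and 20 had an unadjusted p under 0.05, against 11% of genes tested. In 12 genes all 4 CM libraries were below all 4 control libraries, as in 3.52% of genes tested.

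Top2a had 1315, 1184, 1350.2 and 1263 CPM in CM cells, against 1504, 1460.2, 1352 and 1519 CPM in control cells at 16 h. The groups were apart by less than 2 CPM, because control replicate 3, the library that stood apart, was as low as the highest CM library (-0.19 ± 0.04, adjusted p 0.0147, edgeR). Aurkb had 135, 140.0, 127 and 133 CPM in CM cells, against 139, 160.2, 157 and 155 CPM in control cells; its groups overlapped through control replicate 1 (-0.19 ± 0.04, adjusted p 0.0114). Cdk1 had 392, 362, 385 and 378 CPM in CM cells, against 437, 416, 412 and 421 CPM in control cells, with no overlap (-0.15 ± 0.04, adjusted p 0.0491).

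Other members were not called at 16 h. Foxm1 had 205, 211, 204 and 204 CPM in CM cells, against 213, 239, 222 and 218 CPM in control cells, which left a narrow gap between the groups (-0.11 ± 0.04, adjusted p 0.183, edgeR). Mki67 had 1097, 1037, 1174 and 1042 CPM in CM cells, against 1163, 1197, 1088 and 1115 CPM in control cells, and overlapped (-0.07 ± 0.05). Plk1, with 181, 204, 182 and 198 CPM in CM cells, against 192, 210.3, 217 and 213 CPM in control cells, overlapped as well (-0.12 ± 0.05). Ccnb1 had 342, 306, 334 and 329 CPM in CM cells, against 355, 345, 335 and 359 CPM in control cells, and Kif23 had 203, 201, 210.2 and 204 CPM in CM cells, against 226, 216, 208 and 228 CPM in control cells. In both, single libraries of the groups overlapped, with -0.09 ± 0.04 and -0.10 ± 0.04. Smc4 (568, 541, 610.1 and 577 CPM in CM cells, against 596, 559, 575 and 593 CPM in control cells) and Ccnb2 (143, 141, 139.5 and 142 CPM in CM cells, against 140.3, 132, 144 and 144 CPM in control cells) lay on top of their controls, at -0.02 ± 0.04 and 0.01 ± 0.04.

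The 7 calls rested on few libraries. Without control replicate 4 only Aurkb and Ncaph were called, without control replicate 2 or CM replicate 2 there were 3 calls, without CM replicate 4 there were 4, and without control replicate 1 there were 5, Ube2c among them. Without control replicate 3, the library that stood apart, 8 were called and the median was -0.13. CM libraries were deeper than control libraries, and with all libraries thinned to the lowest total 8 genes were called lower, with a median of -0.10. Of 6 bile duct markers, summing to 2031 CPM in CM cells and 2611 CPM in control cells at 16 h, Spp1 alone carried the gap (1918 CPM in CM cells and 2493 CPM in control cells). Krt19 (49.5 and 51.8 CPM) and Sox9 (64.2 and 66.0 CPM) were close between CM and control cells, Epcam, Krt7 and Cldn4 were under 1 CPM in every library, and the part of these genes in the result was not tested.

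At 28 h none of the 40 was called with CM (edgeR), where 1.92% of genes tested changed in either direction. The median was -0.03 (-0.06 without CM replicate 2 and -0.01 without CM replicate 4), from Cdk1 (-0.13 ± 0.04, adjusted p 0.144) to Cenpf (0.14 ± 0.07, adjusted p 0.392). An unadjusted p under 0.05 was found for 10 of the 40, a larger share than the 12.7% of genes tested. Top2a, Aurkb and Incenp had all 4 CM libraries below all 4 control libraries, 3 of 40, against 4.64% of genes tested, which is near the background. Aurkb had 93.3, 91.7, 92.8 and 92.4 CPM in CM cells, against 100.1, 98.9, 103 and 94.1 CPM in control cells, a small gap (-0.10 ± 0.04). Top2a had 973, 967, 956 and 890.3 CPM in CM cells, against 975, 1006, 1009 and 1058 CPM in control cells, with the lowest control library just above the highest CM library (-0.10 ± 0.04). Cdk1 had 241, 241, 228 and 212 CPM in CM cells, against 253, 257, 237 and 259 CPM in control cells, and overlapped.

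The remaining key members lay close to their controls at 28 h. Foxm1 had 119, 122, 112 and 119 CPM in CM cells, against 125, 133, 123 and 122 CPM in control cells, and overlapped slightly (-0.09 ± 0.04). Plk1 had 106, 108, 96.3 and 106 CPM in CM cells, against 104, 108, 100.2 and 112 CPM in control cells. Ccnb1 had 199, 205, 194 and 180.2 CPM in CM cells, against 206, 201, 190.3 and 202 CPM in control cells. Both overlapped along most of their range. Mki67 had 818, 849, 795 and 767 CPM in CM cells, against 765, 691, 818 and 810.1 CPM in control cells. Kif23 had 121, 119, 120.1 and 111 CPM in CM cells, against 117, 113, 113 and 129 CPM in control cells. These overlapped too, Mki67 with a mean that was higher with CM (0.07 ± 0.05). Ccnb2 had 123, 117, 114 and 113 CPM in CM cells, against 114, 117, 109.6 and 119 CPM in control cells, and Smc4 had 390.3, 415, 380.4 and 371 CPM in CM cells, against 402, 363, 396 and 403 CPM in control cells. Neither showed a gap between the groups.

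None of the 40 had a CM effect that differed between 28 h and 16 h by the interaction test (edgeR), where 0.277% of genes tested did. An unadjusted p under 0.05 was found for 4 of the 40, a somewhat larger share than the 6.73% of genes tested. The 4, named after their values were seen, were Kif20a (0.17 ± 0.05), Cenpe (0.22 ± 0.09), Cenpf (0.28 ± 0.10) and Anln (0.11 ± 0.05). In 39 of the 40 the difference was above 0, a description over genes that share libraries. The median of the 40 was 0.07, beside -0.01 over all genes tested. It was 0.10 without control replicate 3 at 16 h and 0.04 to 0.10 with any 1 library left out. In HL-1 cells CM at 28 h was below control at 16 h for all 40 genes in every library, as for 28.1% of genes tested, while 28% were above it; the ratio of means had a median of 0.627, from 0.476 (Aurka) to 0.833 (Ccnb2).

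Levels of the 40 genes were compared within a line as RPKM, the CPM per kilobase of exon. In AML12 control cells at 17 h the highest levels were those of Top2a (40.7 RPKM), Ccnb2 (33.4) and Incenp (30.0), and the lowest were those of Nek2 (2.16) and Cdc25c (2.38). In HL-1 control cells at 16 h Cdc20 (178 ± 28.4 RPKM, SD, n = 4), Top2a (162) and Ube2c (114) were highest, and Cdc25c (12.6) and Ttk (20.7) lowest. All 40 were higher in HL-1 than in AML12 in these control groups, by 1.53 times for Kif23 to 19.0 times for Nek2, with a median of 5.26 times. The tables list different numbers of genes and each line was scaled on its own, so this ratio of levels across them is a description, with no test. The share of all genes that were higher in HL-1 was not worked out, so a trait of the 40 cannot be read from it.

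Other genes of the same pathways were taken from 7 lists of 123 genes in all. In AML12 at 17 h, 25 of 25 other kinetochore and checkpoint genes rose with DEX (median log2 fold change 0.59), as did 21 of 22 other kinesin, spindle and cytokinesis genes (0.74) and 4 of 4 other condensin subunits (0.67). The shares were smaller in the other lists: 11 of 17 regulators of the MuvB, MYB and E2F families rose (median 0.33) and none fell, and 15 of 24 genes of the anaphase-promoting complex, cohesin and separase rose (0.16) and none fell. Of 15 genes of mitotic entry and the Plk family 11 rose (0.50) and Plk2 fell (-0.34). The background shares at this time are those given above, 20.5% higher and 17.9% lower.

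Single genes of these lists changed more than any member. Cenpm, of the inner kinetochore, averaged 63.6 CPM in DEX cells and 18.9 CPM in control cells at 17 h, a log2 fold change of 1.75 ± 0.09. Plk3, a stress-linked polo kinase, averaged 14.7 CPM in DEX cells and 4.57 CPM in control cells (1.68 ± 0.10). The DEX effect on both was smaller at 25 h than at 17 h, by 0.83 for Cenpm and 1.56 for Plk3 on the log2 scale, in contrast to the 40 genes, where no such difference was called. E2f2 (1.12) and E2f7 (1.05), of the E2F family, and Espl1 (1.01), the gene of separase, were also higher. Mybl2 (0.93), the gene of B-MYB, rose by slightly less than Mki67 (0.95), the member with the largest change when all libraries were kept.

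Of the 14 tested CDK inhibitors and p53-linked arrest genes 4 rose and 4 fell with DEX at 17 h, with a median of 0.00; over all genes tested 20.5% rose and 17.9% fell, so these counts are near the background. Higher were Cdkn2c (0.57), Cdkn2d (0.51), Gadd45g (1.13) and Sesn2 (0.30), and lower were Cdkn2a (-0.33), Cdkn2b (-0.49), Gadd45a (-0.58) and Btg2 (-0.43). At 25 h 1 of the 14 rose, Cdkn2c (0.28), and 4 fell, Cdkn1a, Gadd45a, Btg2 and Sesn2. Over all genes tested 6.79% rose and 4.96% fell at 25 h, so the share that fell was above the background. Cdkn1a, the gene of the CDK inhibitor p21, averaged 213 CPM in DEX cells and 289 CPM in control cells at 25 h (-0.44 ± 0.06), and was at -0.13 with an adjusted p of 0.0651 (edgeR) at 17 h. Without DEX replicate 1 or control replicate 1 at 17 h it was called lower, with adjusted p of 0.0281 and 0.0431. With time it rose by 0.18 in DEX cells, 0.49 in AML12 control cells, 0.92 in CM cells and 0.93 in HL-1 control cells on the log2 scale. Without DEX replicate 2 at 25 h the rise in DEX cells was not called (0.14, adjusted p 0.0571).

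At 25 h in AML12, the other lists counted 6 of 17 higher for the MuvB, MYB and E2F regulators, 8 of 15 for mitotic entry, 10 of 24 for the anaphase-promoting complex and cohesin, 16 of 25 for kinetochore and checkpoint genes, 21 of 22 for kinesins and spindle and 4 of 4 for condensin, where 6.79% of genes tested rose and 4.96% fell. The 1 gene lower among these 6 lists was Psrc1 (-0.22). With time, 24 of 25 kinetochore and checkpoint genes and 20 of 22 kinesin and spindle genes fell in DEX cells, as did 21 and 20 in AML12 control cells, 24 and 22 in CM cells, and 25 and 22 in HL-1 control cells. Of the 24 genes of the anaphase-promoting complex and cohesin, 12 fell in DEX cells, 12 in AML12 control cells, 16 in CM cells and 17 in HL-1 control cells. Of the 17 MuvB, MYB and E2F regulators, 12 fell in DEX cells, 6 in AML12 control cells, 13 in CM cells and 13 in HL-1 control cells. For the 15 genes of mitotic entry these counts were 13, 11, 12 and 12 in the same order, and for the 4 condensin subunits 4, 3, 3 and 3. Of all genes tested, 28.2% fell in DEX cells, 21.4% in AML12 control cells, 32.9% in CM cells and 31.3% in HL-1 control cells.

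With CM the lists held few calls. At 16 h the inhibitory CDK1 kinase gene Wee1 was higher (74.4 CPM in CM cells and 61.3 CPM in control cells, 0.28 ± 0.06, adjusted p 0.00583, edgeR). Ccnf (-0.24), Fbxo5 (-0.22) and Spc25 (-0.23) were lower, 1 gene in each of 3 lists, which held 15, 24 and 25 tested genes. Over all genes tested, 0.83% rose and 1.2% fell with CM at 16 h. At 28 h Wee1 was lower with CM (34.1 CPM in CM cells and 40.2 CPM in control cells, -0.24 ± 0.06, adjusted p 0.0468) and so was Lin9 of the MuvB core (-0.21, adjusted p 0.0291). The CM effect on Wee1 differed between the times (-0.52 ± 0.08, adjusted p 0.00205). Its call at 28 h was lost without any of control replicates 1 to 3 or CM replicates 1 to 3, with adjusted p up to 0.216. That of Lin9 was lost without control replicate 1, 2 or 4 or CM replicate 3 or 4, with adjusted p up to 0.102. With counts thinned to the lowest total neither was called at 28 h (adjusted p 0.0837 for Wee1 and 0.0556 for Lin9, edgeR). Neither was called with only the 8 libraries compared (0.0624 and 0.0884). Wee1 also lost its call with total counts only and with limma-voom, and Lin9 with no low-count filter.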

How the data were processed

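RNA was extracted with TRIzol and libraries were made with a NEBNext Ultra II kit, per the labels' protocols. Per the submitters' processing notes, the authors ran STAR and FastQC 0.11.8 and worked on build mm10, also named GRCm38. Which program counted the reads, whether it used strand, and which gene annotation it read is not given in the sources used here. The deposited values are whole-number counts per gene and library, not normalized, as their differing totals show. In the HL-1 table the columns of CM libraries carry the name DEX, and the labels' descriptions tie them to the CM samples.

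Each line was fitted alone with edgeR 4.0.16 (R 4.3.3): TMM scaling, its filter on low counts by group, 1 mean per group over 16 libraries, the quasi-likelihood test, and Benjamini-Hochberg adjustment over all genes tested (calls at an adjusted p under 0.05). The scripts were tested on simulated data. SE is the size of the log2 fold change over the root of F. Alternatives were DESeq2 1.42.0, limma-voom 3.58.1, other scalings, no filter, thinned counts, a replicate block, only the 8 libraries compared, and each library left out; leaving out both AML12 DEX libraries that stood apart was chosen after seeing the data. Exon lengths and gene positions are from GENCODE M21 (GRCm38), promoters from RefSeq (GRCm38.p6). Values by library are given for Foxm1, Plk1, Ccnb1, Cdk1, Mki67 and Top2a and for the members with the 2 smallest and 2 largest changes with DEX at 17 h or CM at 16 h. From each other list up to 4 genes with the smallest p are named, plus Cdkn1a and genes of counts of 5 or fewer, the last named after their values were seen. The 40 genes, the 7 lists and the markers were chosen with earlier results of these data known, so their counts are not independent support.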

Additional observations from a re-analysis of the deposited data

Results flagged for a closer look

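In 28 of the 328 values checked (each of the 40 genes and their sum, in 8 groups), 1 library lay far from the other 3 by Dixon's test, which chance does for about 1 group in 20. Of these, 8 were in replicate 2 of AML12 DEX at 17 h, the library that stood apart over all genes. It was the highest of its group for Ccnb2 (75.4 CPM), Ccna2 (149), Mki67 (663), Cenpe (107), Ncaph (61.0), Dlgap5 (51.5), Pttg1 (54.4) and the sum of the 40 genes (5030 CPM to the nearest whole number, 5029.6). A further 6 were in replicate 4 of AML12 DEX at 25 h, again as the highest, for Aurkb (67.1 CPM), Ttk (29.5), Tpx2 (97.3), Kif4 (31.6), Cdca8 (32.7) and Hmmr (56.4). Among AML12 control libraries, replicate 1 at 17 h was high in the sum of the 40 genes (3079 CPM) and replicate 1 at 25 h in Ccnb2 (40.4 CPM) and Ect2 (51.8).

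In HL-1 cells at 16 h, CM replicate 4 was low in Aurka (169 CPM), CM replicate 2 low in Ttk (91.8), CM replicate 3 high in Cenpf (633) and control replicate 3 high in Cenpa (233.9). At 28 h CM replicate 3 was low in Plk1 (96.3 CPM) and CM replicate 4 low in Dlgap5 (115.5). Control replicate 2 was low in Cenpf (312 CPM), Kif4 (107) and Smc4 (363), control replicate 1 low in Aurka (89.4) and control replicate 4 high in Ttk (67.5).

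The test of effects that differed between the times (interaction, edgeR) called none of the 40. Those given below were called among up to 4 genes of each other list with the smallest p, plus Cdkn1a. Over whole lists, DEX calls above and below 0 numbered 0 and 3 of 17 MuvB, MYB and E2F regulators and 1 and 2 of 15 mitotic entry genes. They numbered 0 and 3 of 25 kinetochore genes, 0 and 1 of 22 kinesin and spindle genes, and 3 and 4 of 14 arrest genes. Of all genes tested, 16.2% had such a DEX effect and 0.277% such a CM effect. The DEX effect, 25 h minus 17 h on the log2 scale, was -0.92 for E2f2, -0.29 for Cdc25b, -1.56 for Plk3, -0.83 for Cenpm, -0.31 for Cdkn1a, 0.56 for Cdkn2b, -1.15 for Gadd45g and 0.26 for Btg2. The CM effect, 28 h minus 16 h, was -0.52 for Wee1.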

How the results depend on the processing

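Of 7160 values of the 40 genes recomputed under an alternative, 6951 kept their direction and side of the threshold, 151 changed sign while called under neither setting, 30 lost a call, 28 gained one and none of the called values turned; the causes were not tested. All calls of DEX against control at 17 h and 25 h and of both HL-1 time comparisons were kept under every alternative run. The number of genes lower with CM at 16 h was 3 with only the 8 libraries compared, 2 to 8 with 1 library left out, and 6 to 9 otherwise; Ncaph kept its call throughout. For the difference of the DEX effect between times, 1 gene (Kif23) was called higher with total counts only, 3 lower with no low-count filter, 3 lower without both AML12 DEX libraries that stood apart, and 0 to 1 higher and 0 to 2 lower with 1 library left out. With no low-count filter 1 gene, Cenpf, was called higher with CM at 28 h (0.14, adjusted p 0.0303) and 1, again Cenpf, in the difference of the CM effect (0.27, adjusted p 0.000709). Upstream of the start alone, 14 member promoters held a CHR core, 13 a CHR core and a CCAAT box, and 1 an E2F-type site. The largest shift of the median of all genes was 0.047 on the log2 scale. For the other lists, 2389 of 2506 counts stayed within 1.5 times. In AML12, deviations of same-numbered libraries correlated at -0.125 to 0.135, with 1 of 24 pairs over 0.1. In HL-1 they correlated at -0.187 to 0.186, with 4 of 24 pairs over 0.1. In each line these values lay within the range of differently numbered pairs. Pairing by number was thus not seen, but low correlations cannot exclude it. With the replicate block 40 genes were called higher with DEX at each time and 7 lower with CM at 16 h. In AML12, 39 genes were lower with time in DEX cells and 40 in control cells. None was called in either difference. These counts were the same as without the block. Depth limits Nek2 and Cdc25c of AML12 most, as their counts are the lowest of the 40.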
